A study of Mus musculus with 4 samples.

Results

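CTCF peaks at the 3 mouse T cell receptor loci, Tcra (with the delta genes Tcrd lying inside it), Tcrb and Tcrg, were described in plasmablasts and in B cells. These loci were taken by position (mm9). The alpha/delta interval ran from 52900000 to 55000000 on chromosome 14, the beta interval from 40800000 to 41600000 on chromosome 6, and the gamma interval from 19200000 to 19500000 on chromosome 13. Every deposited peak with its midpoint inside an interval was taken, which gave 48 of 31086 plasmablast peaks and 44 of 36381 B cell peaks. Together they formed 59 sites, numbered here from the low end of each interval, of 42765 sites in the whole lists. The series consists of 4 samples, a CTCF chromatin immunoprecipitation library and an input library for each cell type, all from C57BL/6 mice aged 6 weeks. Plasmablasts were CD138+ spleen cells sorted 3 days after a retro-orbital injection of 50 µg lipopolysaccharide (LPS), and B cells were the CD43- spleen fraction of mice for which no injection is given. Whether cells of several animals were pooled is not given in the sources used here, and peak lists hold no expression values by which the labelled cell types could be checked. Each cell type had a single CTCF library, so replicate spread is unknown and no test between cell types was run. The plasmablast libraries were sequenced on a HiSeq instrument and the B cell libraries on a Genome Analyzer II, so cell type and instrument cannot be told apart.

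T cell receptor genes are assembled from variable (V), diversity (D), joining (J) and constant (C) segments by the RAG recombinase in developing T cells, and in B lineage cells they normally stay in germline order. CTCF is a zinc finger protein that binds DNA, marks chromatin boundaries and anchors the loops formed by cohesin. In mouse thymocytes it is known to bind near the enhancer and J alpha promoter of Tcra and among the V segments, and to take part in folding these loci for recombination. RefSeq (GRCm38) lists 130 Trav entries, 40 of them in copies with d in the name and 34 in copies with n, from duplications of the V alpha array. In that annotation, rising coordinates lead from Trav1 through the delta genes to the 60 Traj segments, Trac and the neighbouring gene Dad1, which encodes a subunit of the oligosaccharyltransferase. Tcrb has 35 Trbv entries, and trypsinogen genes such as Prss2 lie between Trbv30 and Trbd1. Tcrg has 7 Trgv and 4 Trgc entries and is followed by Stard3nl. No mm9 annotation or sequence was used here, so peaks were not assigned to segments, and mapping of reads within the duplicated V alpha copies was not tested.

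Most of the sites at these loci were listed in both cell types. Of the 59 sites, 33 were shared, meaning that the peaks of both lists overlapped by at least 1 bp, 15 were listed in plasmablasts only and 11 in B cells only. Shared sites were 68.8% of the 48 plasmablast peaks (exact 95% binomial interval 53.8 to 81.3%), against 79.5% of the whole plasmablast list. They were 75% of the 44 B cell peaks (59.7 to 86.8%), against 67.9% of the whole B cell list. Both intervals hold the whole-list value, so neither share stood apart from its list beyond counting error, which is the sole error these intervals cover. The Tcra interval had 20 shared, 11 plasmablast only and 7 B cell only sites. Tcrb had 7 shared, 4 plasmablast only and 3 B cell only sites, and Tcrg had 6 shared sites, none in plasmablasts only and 1 in B cells only.

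**Figure D1:**
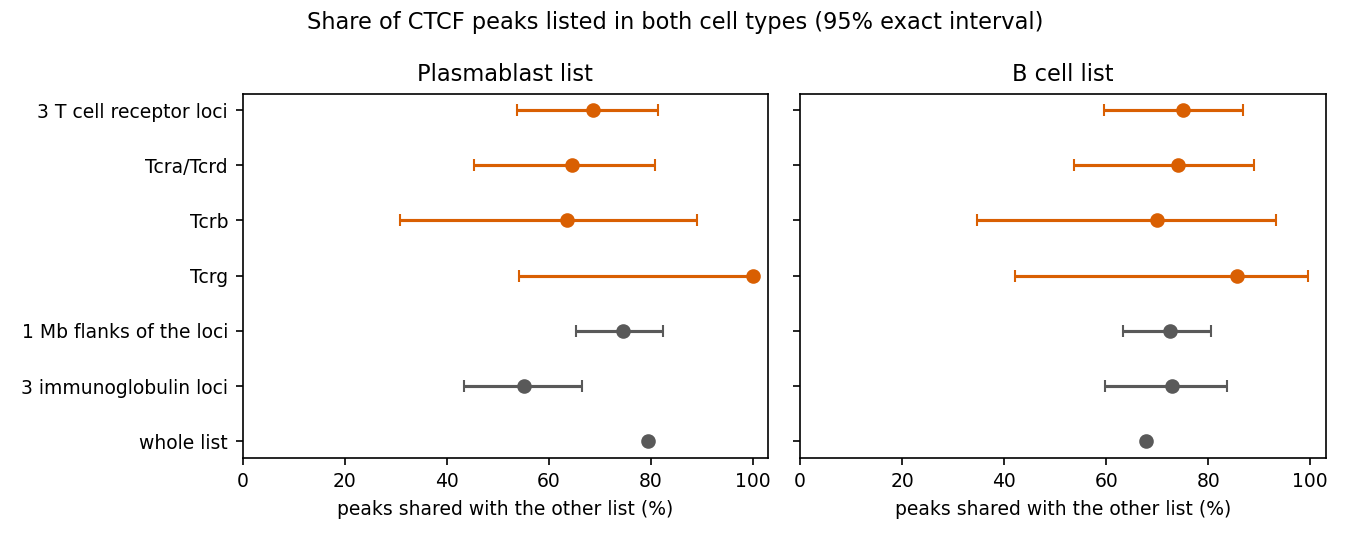
Share of CTCF peaks (percent, x axis) that overlapped a peak of the other list, in the plasmablast list (left) and the B cell list (right), with points for each region and bars for exact 95% binomial intervals. The T cell receptor loci gave 68.8% and 75%, with intervals that span the whole-list shares of 79.5% and 67.9%.

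Sharing at these loci went with strength, as given by the authors' peak score. Because scores of the lists lie on different scales, each is read as a percentile, the share of peaks in its own list with a lower score (ties counted by their middle rank). Of the 19 plasmablast peaks that scored above their list's median, 18 were shared (94.7%, interval 74.0 to 99.87%), against 89.8% in the whole list. Of the 29 weaker plasmablast peaks, 15 were shared (51.7%, 32.5 to 70.6%), against 69.2%. In B cells 16 of the 18 stronger peaks (88.9%, 65.3 to 98.6%, whole list 93.9%) and 17 of the 26 weaker ones (65.4%, 44.3 to 82.8%, whole list 41.7%) were shared. The weaker B cell peaks were thus shared at a share whose interval lies above the whole-list value, while the other intervals hold theirs. This division was made after seeing the data, and scores among the weaker peaks were not matched to those of the whole list. If each peak had been shared at the share of its score decile in its whole list, 36.1 of the plasmablast and 29.0 of the B cell peaks would have been shared, where 33 were.

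The median percentile was 32.7 for the 48 plasmablast peaks (95% interval from order statistics 24.8 to 60.3) and 44.2 for the 44 B cell peaks (34.4 to 54.2), where a whole list has its median near 50 by construction. Both intervals hold 50, so the medians were not set apart from their lists beyond counting error. The immunoglobulin loci Igh, Igk and Igl together had medians of 37.4 in plasmablasts and 39.5 in B cells, and the 1 Mb flanks of the 3 loci 50.5 and 54.9, with 32.7 and 37.7 in the flanks of Tcrg alone. Above the 90th percentile lay 1 of the 48 plasmablast peaks and 2 of the 44 B cell peaks, all of them in the Tcra interval. In the whole lists 3111 of 31086 plasmablast and 3669 of 36381 B cell peaks lie there by construction. No interval was computed for these small counts. The weakest peaks lay at percentile 2.98 in plasmablasts and 6.77 in B cells.

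The strongest sites of the Tcra interval were a pair near its high end, and both cell types ranked them alike. Site 33 scored 59.5 in plasmablasts (chr14:54858826-54859004, percentile 92.4) and 233.4 in B cells (chr14:54858749-54859053, percentile 92.7). Site 32 scored 54.3 in plasmablasts (chr14:54847680-54847858, percentile 89.4) and 240.8 in B cells (chr14:54847816-54848120, percentile 93.8). They were the 2 highest ranked sites of the interval in both lists. The peaks of site 32 overlapped by 43 bp, with midpoints 199 bp apart, the widest offset among the shared sites of the 3 loci.

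Elsewhere in the interval other shared sites ranked above the middle in both lists. Near the low end, site 5 scored 23.7 in plasmablasts (percentile 56.9) and 76.9 in B cells (percentile 56.3). Site 25 scored 28.3 in plasmablasts (chr14:54424005-54424183, percentile 63.7) and 172.3 in B cells (chr14:54423969-54424273, percentile 81.5). Site 28 scored 34.0 in plasmablasts (chr14:54684310-54684488, percentile 70.8) and 152.8 in B cells (chr14:54684238-54684542, percentile 77.2). Its neighbour, site 27, had scores of 26.0 in plasmablasts (percentile 60.3) and 103.7 in B cells (percentile 65.1). The last site of the interval, site 38, scored 26.2 in plasmablasts (chr14:54995714-54995892, percentile 60.5) and 142.6 in B cells (chr14:54995633-54995937, percentile 74.97). The widest stretch of the interval without any peak, 253.5 kb, lay between sites 26 and 27.

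The strongest site listed in 1 cell type alone was a plasmablast peak beside a shared one. Site 26 scored 41.5 in plasmablasts (chr14:54425992-54426170, percentile 79.0), and its midpoint lay 1960 bp from the B cell peak of site 25. It was the single one of the 15 plasmablast only peaks of the 3 loci that scored above its list's median, which 24.9% of such peaks did in the whole list. The other 10 plasmablast only peaks of Tcra lay between percentiles 2.98 and 40.7. The strongest B cell only peak was site 37, with a score of 86.1 (chr14:54980533-54980837, percentile 59.6), 6400 bp from the plasmablast peak of site 36. The other 6 B cell only peaks of Tcra lay between percentiles 10.3 and 40.8.

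Ranks differed most between the cell types at 6 shared Tcra sites, in both directions. Site 1, at the low end, scored 40.2 in plasmablasts (chr14:52915422-52915600, percentile 77.7) and 20.4 in B cells (chr14:52915223-52915527, percentile 13.6). Site 30 scored 47.0 in plasmablasts (chr14:54772630-54772808, percentile 84.0) and 37.0 in B cells (chr14:54772563-54772867, percentile 34.4). Site 4 scored 42.9 in plasmablasts (chr14:52958452-52958630, percentile 80.3) and 50.0 in B cells (chr14:52958415-52958719, percentile 43.7). At these 3 sites plasmablasts were the higher by 64.2, 49.5 and 36.6 percentile points. The midpoints of both peaks were 136 bp apart at site 1, 4 bp at site 30 and 26 bp at site 4.

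In the other direction, site 6 scored 5.0 in plasmablasts (chr14:53200095-53200273, percentile 4.06) and 71.3 in B cells (chr14:53200067-53200371, percentile 54.2). Site 7, the next one up, scored 10.5 in plasmablasts (chr14:53241975-53242153, percentile 27.9) and 77.8 in B cells (chr14:53241899-53242203, percentile 56.6). Site 36 scored 8.4 in plasmablasts (chr14:54974196-54974374, percentile 19.8) and 57.4 in B cells (chr14:54974178-54974482, percentile 47.8). Plasmablasts were the lower there by differences of -50.1, -28.7 and -27.9 points. None of the peaks at sites 6, 7 and 36 passed the 60th percentile of its list.

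**Figure D2:**
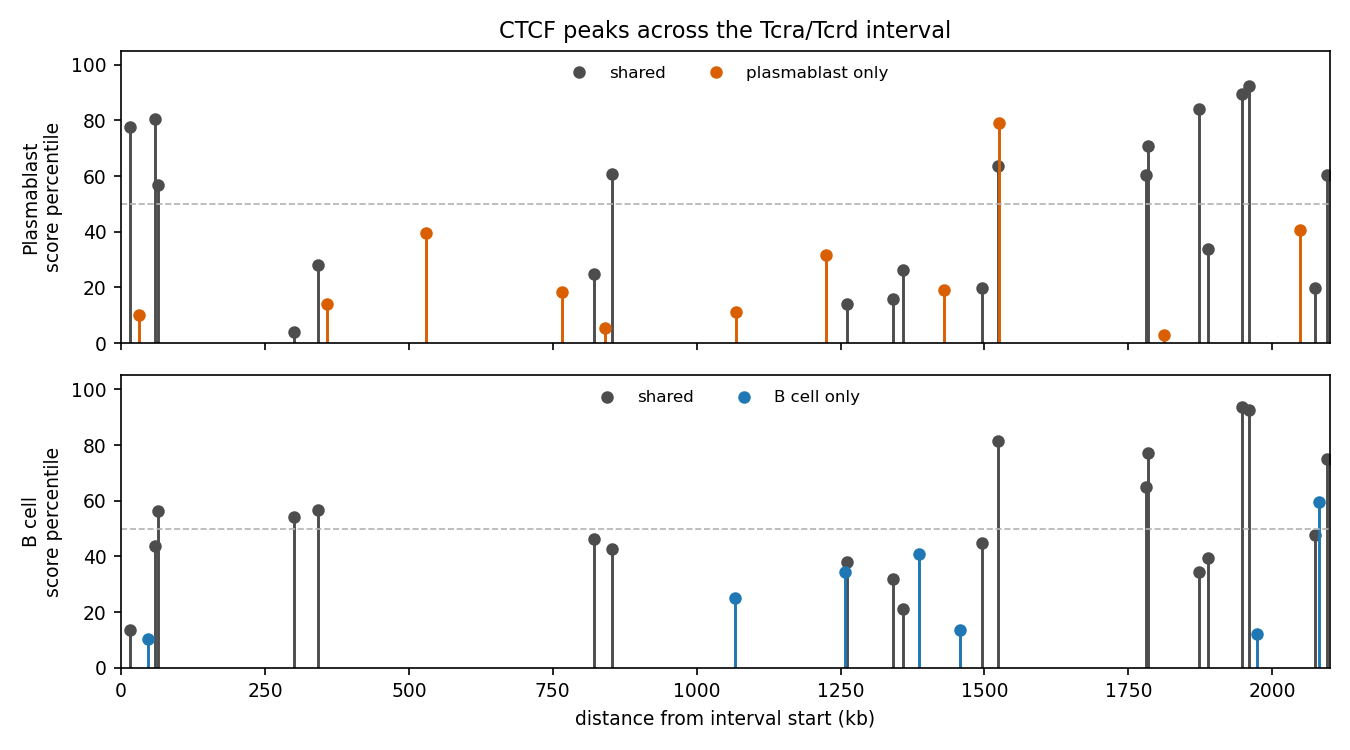
CTCF peaks along the alpha/delta interval, with distance from its start in kb on the x axis and the score percentile within the own list on the y axis, for plasmablasts (top) and B cells (bottom). Grey stems are shared peaks and coloured stems are listed in that cell type only, and the dashed line is percentile 50. The pair at sites 32 and 33 ranks highest within the interval in both lists, with percentiles of 89.4 and 92.4 in plasmablasts and 93.8 and 92.7 in B cells.

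Sites of the Tcra interval were unevenly placed, with long stretches free of peaks. Of its 21 bins of 100 kb, 7 held no site of either list, 7 held no plasmablast peak and 9 no B cell peak. The share of such bins on all autosomes was not computed. The widest gap between neighbouring plasmablast peaks was 253.6 kb, from site 26 to site 27 (chr14:54679553-54679731). It was wider than 94.6% of the autosomal gaps of that list. Next came 236.7 kb from site 5 (chr14:52963382-52963560) to site 6 and 234.7 kb from site 9 (chr14:53430373-53430551) to site 10 (chr14:53665120-53665298). In B cells the widest gap was 479.1 kb, from site 7 to site 11 (chr14:53721041-53721345), which is wider than 98.0% of the gaps on autosomes. That stretch held 3 peaks in plasmablasts only, sites 8, 9 and 10, with percentiles from 13.99 to 39.4. The median gap was 32.3 kb in plasmablasts and 30.8 kb in B cells at Tcra, against 25.04 and 19.6 kb on all autosomes. Gaps of at least 100 kb were 6 of 30 in plasmablasts at Tcra (20%), against 15.3% on all autosomes. In B cells they were 6 of 26 (23.1%), against 11.5%.

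Divided into 3 equal stretches of 0.7 Mb, a division chosen after the values were seen, the interval was densest at its high end. The highest stretch had 20 plasmablast peaks per Mb (Poisson interval 10.9 to 33.6) and 18.6 B cell peaks (9.89 to 31.8). The lowest had 11.4 (4.93 to 22.5) and 8.57 (3.15 to 18.7). Intervals of the 3 stretches overlap in each list, so their densities were not set apart beyond counting error. The highest stretch held 14 plasmablast and 13 B cell peaks, of which 10 in each list were shared. The middle one held 9 and 8, with 5 shared, and the lowest 8 and 6, with 5 shared. The median percentile, for which no interval was computed here, was 60.4 in plasmablasts and 59.6 in B cells in the highest stretch. In the middle stretch it was 18.3 in plasmablasts and 36.3 in B cells, and in the lowest 33.7 in plasmablasts and 48.9 in B cells. In the middle stretch 1 of the 9 plasmablast peaks, at site 13, and none of the 8 B cell peaks scored above its list's median.

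At Tcrb the sites lay in a cluster toward the low end, followed by a long stretch with plasmablast peaks alone. Site 6 was the strongest B cell site of Tcrb and scored 36.5 in plasmablasts (chr6:41062962-41063140, percentile 73.7) and 200.1 in B cells (chr6:41062910-41063214, percentile 87.0). Site 1, set apart at the low end, scored 26.5 in plasmablasts (chr6:40843642-40843820, percentile 61.1) and 143.6 in B cells (chr6:40843566-40843870, percentile 75.2). Both ranked above the middle of their lists in either cell type, as no other Tcrb site did.

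The strongest plasmablast site of Tcrb was weak in B cells. Site 8 scored 44.5 in plasmablasts (chr6:41087072-41087250, percentile 81.8) and 25 in B cells (chr6:41087076-41087380, percentile 21.1). Site 3 scored 36.3 in plasmablasts (chr6:41005659-41005837, percentile 73.5) and 29.6 in B cells (chr6:41005677-41005981, percentile 27.2). Plasmablasts ranked higher by 60.7 points at site 8 and by 46.3 at site 3. Site 7, which lies between sites 6 and 8, had the opposite order, with 5.9 in plasmablasts (chr6:41068274-41068452, percentile 7.70) and 85.2 in B cells (chr6:41068239-41068543, percentile 59.3), a difference of -51.6 points. Within 24.1 kb, then, sites 6, 7 and 8 were high in both lists, low in plasmablasts and low in B cells, in that order.

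The remaining shared Tcrb sites were weaker. Site 5 scored 5.3 in plasmablasts (chr6:41041213-41041391, percentile 5.39) and 25.9 in B cells (chr6:41041219-41041523, percentile 22.4). Site 14, at the high end, scored 13.9 in plasmablasts (chr6:41572703-41572881, percentile 38.1) and 69.5 in B cells (chr6:41572685-41572989, percentile 53.4). Plasmablasts ranked the lower at both.

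Unshared Tcrb sites fell into separate stretches. The 4 plasmablast only peaks were sites 9 (chr6:41144570-41144748, score 11.2, percentile 30.5), 10 (chr6:41212916-41213094, 9.8, percentile 25.5), 11 (chr6:41480116-41480294, 13.7, percentile 37.7) and 12 (chr6:41506492-41506670, 5.0, percentile 4.06). They lay 47914 to 125777 bp from the nearest B cell midpoint. All 4 lie in the 467.3 kb between the B cell peaks of sites 8 and 13, the widest B cell gap of the locus. The 3 B cell only peaks were sites 2 (chr6:40996647-40996951, score 23.2, percentile 18.4), 4 (chr6:41011178-41011482, 16.7, percentile 6.77) and 13 (chr6:41554343-41554647, 67.6, percentile 52.6). Sites 2 and 4 lie on either side of shared site 3, at distances of 8949 and 5582 bp from its plasmablast midpoint. The widest gap of the plasmablast list at Tcrb was 267.2 kb, from site 10 to site 11.

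At Tcrg all 6 plasmablast peaks were shared, which with so few peaks allows a share down to 54.1%. The highest ranks belonged to a close pair near the high end of the interval. Site 7 scored 49.5 in plasmablasts (chr13:19457602-19457780, percentile 86.0) and 172.3 in B cells (chr13:19457545-19457849, percentile 81.5). Site 6 scored 39.7 in plasmablasts (chr13:19456466-19456644, percentile 77.2) and 102.8 in B cells (chr13:19456331-19456635, percentile 64.8). Plasmablasts ranked both higher than B cells did, by 4.54 and 12.3 points.

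Of the other Tcrg sites, site 2 stood at the middle of both lists, with 20.1 in plasmablasts (chr13:19250488-19250666, percentile 51.2) and 61.1 in B cells (chr13:19250375-19250679, percentile 49.6). Site 1 was weaker in both, with 9.8 in plasmablasts (chr13:19225825-19226003, percentile 25.5) and 30.6 in B cells (chr13:19225751-19226055, percentile 28.2). Site 3 scored 10.5 in plasmablasts (chr13:19269587-19269765, percentile 27.9) and 128.7 in B cells (chr13:19269514-19269818, percentile 71.7), the largest rank difference of the locus at -43.7 points. Site 4 scored 6.8 in plasmablasts (chr13:19328334-19328512, percentile 12.1) and 35.2 in B cells (chr13:19328297-19328601, percentile 32.9). The single unshared site, site 5, was a weak B cell peak (chr13:19334531-19334835, score 19.4, percentile 11.97), 6260 bp from the plasmablast peak of site 4. A gap of 128.1 kb in plasmablasts and 121.8 kb in B cells separated the 2 sites at the high end from the rest.

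**Figure D3:**
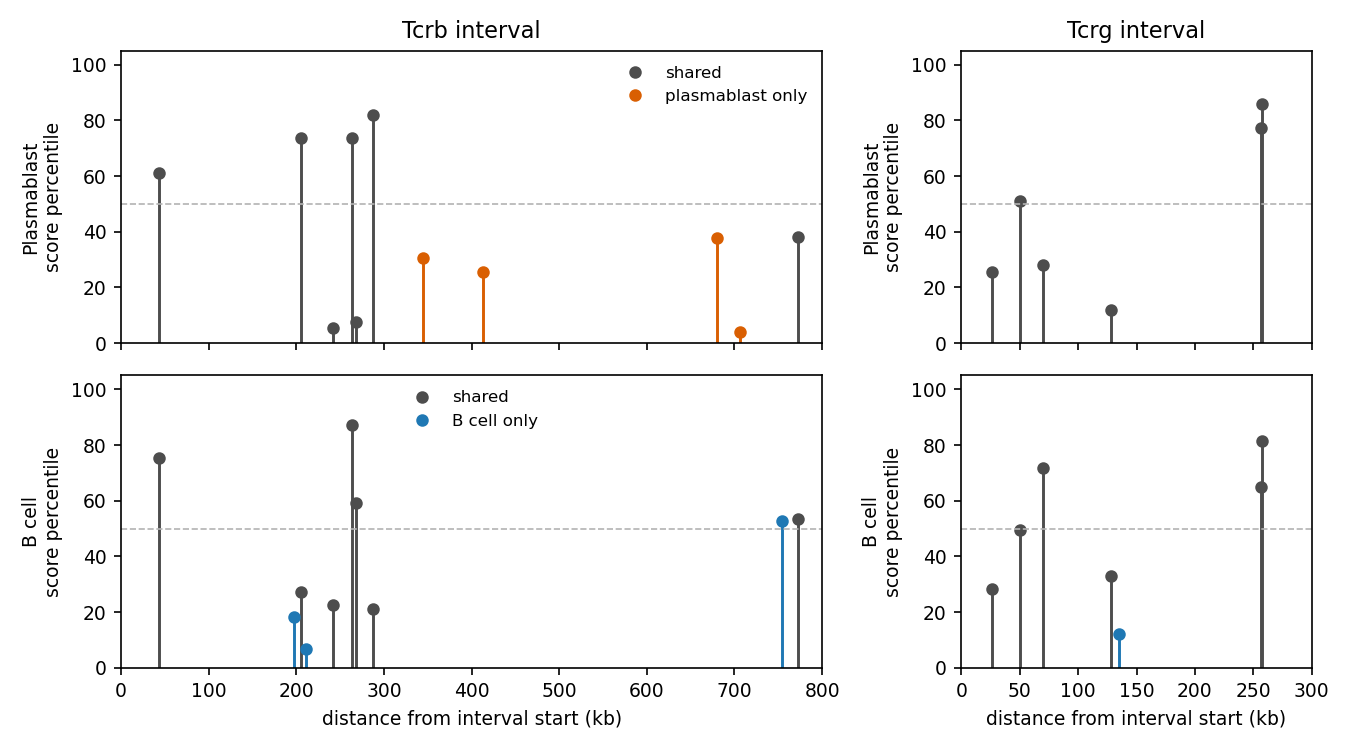
CTCF peaks along the beta interval (left) and gamma interval (right), with distance from the interval start in kb on the x axis and score percentile on the y axis, for plasmablasts (top) and B cells (bottom). Grey stems are shared peaks, coloured stems are listed in that cell type only, and the dashed line is percentile 50. The 4 plasmablast only peaks of Tcrb lie in a stretch without B cell peaks, and all 6 plasmablast peaks of Tcrg are shared.

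Over the 33 shared sites of the 3 loci, plasmablasts had the higher percentile at 11 and B cells at 22. This is 33.3% (interval 18.0 to 51.8%), against 33.9% of all 24702 shared sites. The median difference, plasmablast minus B cell, was -6.38 points at the loci and -7.16 points over all shared sites. A plasmablast percentile at least 25 points higher was found at 5 of the 33 sites (15.2%, interval 5.11 to 31.9%), against 5.76% of all shared sites. These are sites 1, 4 and 30 of Tcra and sites 3 and 8 of Tcrb. A B cell percentile at least 25 points higher was also found at 5 sites (15.2%), against 20.1% of all shared sites, namely Tcra sites 6, 7 and 36, Tcrb site 7 and Tcrg site 3. The whole-list value lay inside the interval in both directions.

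The order of strength in both lists was also compared, without intervals, so the sampling error of each correlation is not shown. As a description across sites, which come from the same pair of libraries, the Spearman rank correlation of the scores was 0.34 over the 33 sites, against 0.70 over all 24702. It was 0.34 over the 20 sites of Tcra, 0 over the 7 of Tcrb and 0.77 over the 6 of Tcrg, the last above the whole-list value, and the values for Tcrb and Tcrg rest on very few sites. Above the 90th percentile the loci held 1 plasmablast and 2 B cell peaks. What part the range of percentiles at the loci had in the correlations was not tested. The median midpoint offset was 27 bp at the loci and 17 bp over all shared sites, and 25 of the 33 pairs lay within 50 bp (75.8%, interval 57.7 to 88.9%), against 88.2% of all shared sites.

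**Figure D4:**
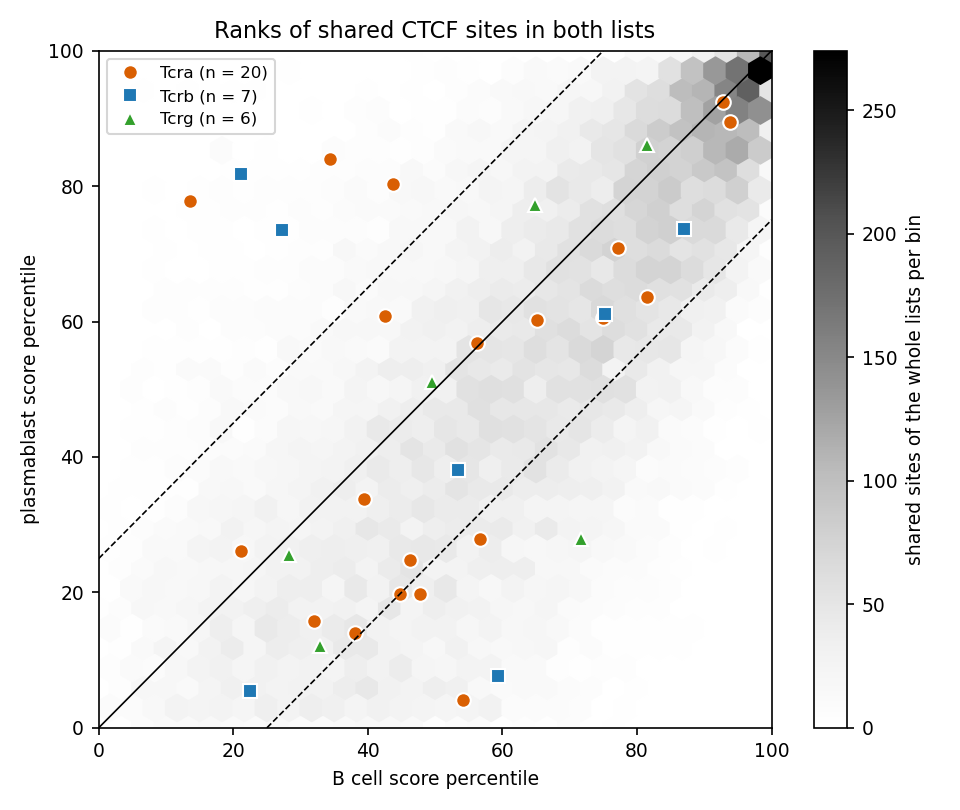
Score percentile in plasmablasts (y axis) against that in B cells (x axis) for shared sites, with grey shading for the number of all shared sites per bin and coloured symbols for the 20 Tcra, 7 Tcrb and 6 Tcrg sites. The solid line marks equal ranks and the dashed lines a difference of 25 points. The 5 symbols above the upper dashed line are Tcra sites 1, 4 and 30 and Tcrb sites 3 and 8.

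Unshared sites at the loci mostly lay several kb or more from the other list's peaks. None of the 15 plasmablast only and none of the 11 B cell only peaks had a midpoint of the other list within 500 bp, which few unshared peaks had in the whole lists either (6.34% in plasmablasts and 2.47% in B cells). The nearest such distances at the loci were 1960 and 3535 bp. Of the plasmablast only peaks, 13 of 15 lay over 10 kb from the nearest B cell midpoint, against 52.1% of such peaks in the whole list. Of the B cell only peaks, 5 of 11 lay that far from a plasmablast midpoint, against 60.1% in the whole list. The plasmablast only peaks are not separate observations in this respect. Tcra sites 8 to 10 share the B cell gap of 479.1 kb, and Tcrb sites 9 to 12 that of 467.3 kb. The most isolated was Tcra site 9, a plasmablast peak 188411 bp from any B cell midpoint. The median percentile was 19.1 for plasmablast only and 18.4 for B cell only peaks, against 27.3 and 19.8 in the whole lists.

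The loci held 15.0 plasmablast peaks per Mb (exact 95% Poisson interval 11.1 to 19.9) and 13.8 B cell peaks per Mb (9.99 to 18.5) over 3.2 Mb. The whole lists had 11.8 and 13.8 per Mb, both within these intervals. The order by density was Tcrg, Tcra and Tcrb in both lists. Tcrg had 20 plasmablast and 23.3 B cell peaks per Mb, Tcra 14.8 and 12.9, and Tcrb 13.8 and 12.5, with intervals that overlap throughout. Counted together, the 1 Mb stretches on either side of Tcra were denser than the locus itself. They had 32.5 plasmablast and 35.5 B cell peaks per Mb. Their intervals of 25.1 to 41.4 and 27.7 to 44.8 lie above those of the locus, 10.0 to 21.0 and 8.47 to 18.7. The flanks of Tcrb had 13 and 10 per Mb and those of Tcrg 9.5 and 11, with intervals that overlap those of their loci.

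**Figure D5:**
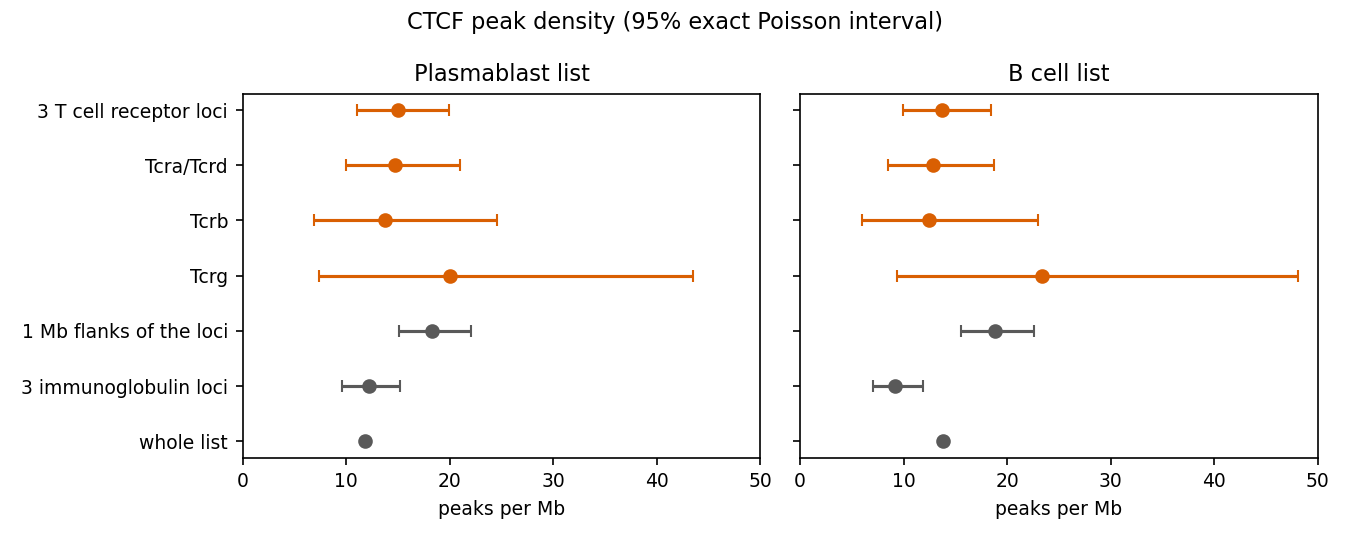
CTCF peaks per Mb (x axis) in the plasmablast list (left) and the B cell list (right), with points for each region and bars for exact 95% Poisson intervals. The T cell receptor loci lie at 15.0 and 13.8 per Mb, near the whole lists at 11.8 and 13.8.

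Plasmablast peaks outnumbered B cell peaks at these loci, 48 against 44, while the whole plasmablast list is the shorter one. They made up 52.2% of the peaks at the loci (interval 41.5 to 62.7%), against 46.1% in the whole lists, a value inside the interval. At Tcra there were 31 plasmablast and 27 B cell peaks. Of 933 autosomal windows of the same length with at least 10 peaks, 19.5% also held more plasmablast than B cell peaks. The median plasmablast percentile of the Tcra interval, 31.7, was above that of 7.18% of the windows, and its median B cell percentile, 43.7, above that of 34.4%.

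The immunoglobulin loci, which do rearrange in B lineage cells, were taken at positions rounded to 100 kb for comparison. These were 114400000 to 117300000 on chromosome 12 for Igh, 67500000 to 70700000 on chromosome 6 for Igk and 19000000 to 19300000 on chromosome 16 for Igl. They held 78 plasmablast and 59 B cell peaks, of which 43 in each list were shared. Shared peaks made up 68.8% at the T cell receptor loci and 55.1% at the immunoglobulin loci (interval 43.4 to 66.4%) in plasmablasts, and 75% and 72.9% (59.7 to 83.6%) in B cells. At Igk, picked out after its values were seen, 11 of 32 plasmablast peaks were shared (34.4%, 18.6 to 53.2%). That interval ends below the lower bound of 53.8% at the T cell receptor loci, and no test of the difference was run. In B cells 11 of the 15 Igk peaks were shared (73.3%, 44.9 to 92.2%), near the share at the T cell receptor loci. The whole lists had shares of 79.5% in plasmablasts and 67.9% in B cells. Shared sites at least 25 points higher in plasmablasts numbered 5 of 33 at the T cell receptor loci (15.2%, 5.11 to 31.9%). At the immunoglobulin loci they numbered 3 of 43 (6.98%, 1.46 to 19.1%). These intervals overlap, and both hold the whole-list value of 5.76%. Sites at least 25 points higher in B cells numbered 5 of 33 and 6 of 43, against 20.1% of all shared sites.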

How the data were processed

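The members and comparisons were chosen with earlier results of these data known. The build mm9 and the tools Bowtie and HOMER are named in the submitters' processing notes, without versions, peak thresholds or the role of the input. The authors deposited 1 peak list per CTCF library, with an authors' score per peak of unstated unit, used here only for ranks within a list. Peaks were 179 bp wide in plasmablasts (1 differed) and 305 bp in B cells. Library depth is unknown. Positions were read as BED and printed 1-based. Overlaps of at least 1 bp were computed in Python 3.11.15 (numpy 2.4.6, pandas 2.3.3, scipy 1.17.1) and gave the same counts as bedtools 2.31.1. Overlap and percentile code was tested on simulated data. Intervals are 95% and cover counting error only. Flanks were 1 Mb on either side, and autosomal windows were 2.1 Mb with at least 10 peaks. Sites described in full followed a rule: every Tcrb and Tcrg site, and at Tcra the 5 highest of each list, unshared peaks above the median, the 3 largest rank differences each way and those bounding the 3 widest gaps. The windows, the 3 stretches of Tcra, the rank-difference threshold of 25 points and the division by score were added after seeing the data. Alternatives were other overlap rules, moved bounds, stronger peaks alone and other reference sets for percentiles. Input libraries were not analysed here. Gene order came from RefSeq on GRCm38, of which no position was used.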

Additional observations from a re-analysis of the deposited data

How the results depend on the processing

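Across 42 alternatives, 38 stayed within the counting interval of the reported value or within 1.5 times a count, and 4 moved. Those 4 came from keeping only peaks above the median score of their own list, which by construction leaves fewer peaks. They were 8 plasmablast only and 7 B cell only peaks, and 5.94 plasmablast and 5.63 B cell peaks per Mb. Both lists were filtered, so a peak whose partner fell below the other list's median counted as unshared. The shared percentages were then 57.9% in plasmablasts and 61.1% in B cells, and whole-list shares under this filter were not computed. Against the full other list, 18 of the same 19 plasmablast peaks and 16 of the same 18 B cell peaks were shared. With 50% reciprocal overlap, or midpoints within 100 bp, the shared percentages were 62.5% and 68.2%, and 3 sites, Tcra sites 1, 5 and 32, were no longer shared. With bounds moved by 50 kb they ranged from 64.1 to 70.9% in plasmablasts and from 75.8 to 76.5% in B cells. The median percentile ranged from 30.5 to 36.7 in plasmablasts and from 40.8 to 46.9 in B cells. Ranking within shared sites alone, an alternative added after seeing the data like those on the plasmablast share of all peaks, gave 9 in place of 10 sites at least 25 points apart. Those were 27.3% and 30.3% of the 33 shared sites, against 23.6% and 25.9% of all shared sites ranked in the same 2 ways. No paired analysis was possible because each cell type had 1 CTCF library, which also means that none can be omitted. Since sequencing depth is not known, an unlisted site may still be bound.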
